A study of Homo sapiens with 16 samples.

Results

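Notch signalling genes and the non-canonical Notch ligand DLK1 were followed through cultures of SH-SY5Y, a human neuroblastoma cell line, that had been differentiated into dopamine-like neurons. The set was defined by name as 10 genes: the receptors NOTCH1, NOTCH2 and NOTCH3, the ligands JAG1, JAG2, DLL1 and DLL3, the ligand-like DLK1, and the target genes HES1 and HEY1. Of these, 9 had a row among the 19898 genes of the expression table, and all 9 passed the filter on low values and were among the 16984 genes tested. DLL1 was not analysed here.

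Each of the 4 groups held 4 libraries of poly-A RNA, and all cultures were differentiated for 15 days. MPP-treated 3D cultures grew in a silk-collagen scaffold and received MPP (1-methyl-4-phenylpyridinium), an inhibitor of mitochondrial complex I used to model Parkinson's disease, at 1 mM for 48 h from day 13. Untreated 3D cultures grew in the same scaffold without the toxin. MPP-treated 2D and untreated 2D cultures were their counterparts on flat dishes. All libraries came from 1 cell line. Nothing in the labels states that the 4 of a group are separate cultures, and p-values therefore reflect the spread among these samples alone, which may be technical. Cells on dishes were detached with an enzyme before freezing while scaffolds were frozen whole, and the effect of this handling cannot be told apart from that of the culture.

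Values are the deposited read counts divided by 1 size factor per library, called normalised read counts here. The libraries held 36554574 to 38414859 reads in MPP-treated 3D against 24589435 to 34658873 in untreated 3D, while MPP-treated 2D had 30399672 to 41813620 and untreated 2D 34643854 to 46359070. Reads on the 13 mitochondrial mRNAs made up 1.04 to 1.52% of reads in MPP-treated 3D against 3.30 to 6.84% in untreated 3D, while MPP-treated 2D had 0.791 to 0.949% and untreated 2D 7.72 to 11.6%. The dopamine-like label rests on few markers here. Of 9 dopamine neuron markers 6 were measured, and TH, the first enzyme of dopamine synthesis, averaged 4241 ± 237 in MPP-treated 3D, 5585 ± 823 in untreated 3D, 595 ± 91.0 in MPP-treated 2D and 341 ± 25.8 in untreated 2D (SD, n = 4 each). DDC averaged 2851 in MPP-treated 3D, 14143 in untreated 3D, 2301 in MPP-treated 2D and 2745 in untreated 2D. SLC18A2 averaged 6007, 3129, 1153 and 975 in the same order, so with MPP in 3D it was higher where TH and DDC were lower. PITX3 and LMX1B reached at most 88.0 and 123 in any library. NR4A2, a transcription factor of midbrain dopamine neurons, reached at most 11.2 in any library, while DBH, which makes noradrenaline, was at 82395 or more.

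In the Notch pathway, ligands of the Jagged and Delta families on 1 cell bind a Notch receptor on its neighbour, and enzymes then cut the receptor and free its intracellular part. That part enters the nucleus, joins the DNA-binding protein RBPJ and MAML coactivators, and switches on HES and HEY repressors, which hold back neuronal differentiation genes in the developing nervous system. DLK1 resembles the Delta ligands but lacks the domain with which they bind Notch, and has been described as an inhibitor of the pathway. It is an imprinted gene, read from the paternal chromosome, and is found in neuroendocrine cells, neuroblastoma and midbrain dopamine neurons.

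The promoters of HES1 and HES4 are shown because both are known targets of Notch and their mRNAs are compared across the groups further on. Each stretch runs from 250 bases before to 50 bases after the gene's start in RefSeq on GRCh38.p14, on the strand of the gene, and capitals mark TGGGAA, the core of the RBPJ binding sequence. The stretch shown for HES1 lies at chr3:194135898-194136197 on the plus strand and that for HES4 at chr1:1000048-1000347 on the minus strand.

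HES1: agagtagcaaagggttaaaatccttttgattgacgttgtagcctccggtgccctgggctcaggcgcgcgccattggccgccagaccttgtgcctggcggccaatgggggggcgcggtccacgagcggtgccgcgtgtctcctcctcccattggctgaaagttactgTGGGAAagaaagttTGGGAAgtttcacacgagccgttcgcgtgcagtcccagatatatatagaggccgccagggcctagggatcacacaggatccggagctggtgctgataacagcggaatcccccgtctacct
HES4: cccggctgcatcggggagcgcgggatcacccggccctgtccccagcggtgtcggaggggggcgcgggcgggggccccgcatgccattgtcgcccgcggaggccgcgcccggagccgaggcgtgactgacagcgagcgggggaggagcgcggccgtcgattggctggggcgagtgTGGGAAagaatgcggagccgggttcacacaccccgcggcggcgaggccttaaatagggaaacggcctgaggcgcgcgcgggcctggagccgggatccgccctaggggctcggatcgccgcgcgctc

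TGGGAA was searched on both strands. HES1 held 2 matches, both on the strand of the gene, whose first bases lie 84 and 70 bases before the start. HES4 held 1 match, 76 bases before the start. At least 1 match stood in 24.0% of the 35116 promoters of this length, and 2.28% had 2 or more on 1 strand. Of the 9 measured genes of the set, 6 had a promoter in the RefSeq table, and the 300 bases of NOTCH1, NOTCH2, NOTCH3, JAG1 and JAG2 held no match. A match of letters is a description of the sequence and was not measured as binding.

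Differences are on the log2(value + 1) scale and were called at an adjusted p under 0.05 over all genes tested. Across the set, untreated 3D against untreated 2D gave 4 members higher (DLK1, HEY1, HES1 and NOTCH1) and 3 lower (NOTCH3, JAG1 and DLL3), with NOTCH2 and JAG2 not called. In that comparison 23.2% of the genes tested were called higher and 23.0% lower, and the members' median log2 difference was 0.25. MPP-treated 3D against untreated 3D gave 0 higher and 5 lower (DLK1, HEY1, HES1, NOTCH3 and JAG1), where 17.0% of all genes tested were higher and 17.6% lower, with a members' median of -0.33. MPP-treated 2D against untreated 2D gave 0 higher and 2 lower (DLK1 and HEY1), beside 17.7% higher and 16.9% lower among all genes, so the members' share of called genes there was near that of all genes. MPP-treated 3D against MPP-treated 2D gave 2 higher (DLK1 and HEY1) and 3 lower (NOTCH3, JAG1 and DLL3), beside 19.0% higher and 19.9% lower. For the difference of the MPP effects, 3D minus 2D, 0 members were higher and 3 lower (HEY1, HES1 and NOTCH3), beside 7.00% higher and 8.32% lower. Comparisons that share a group, such as untreated 3D, are not independent of each other.

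**Figure D1:**
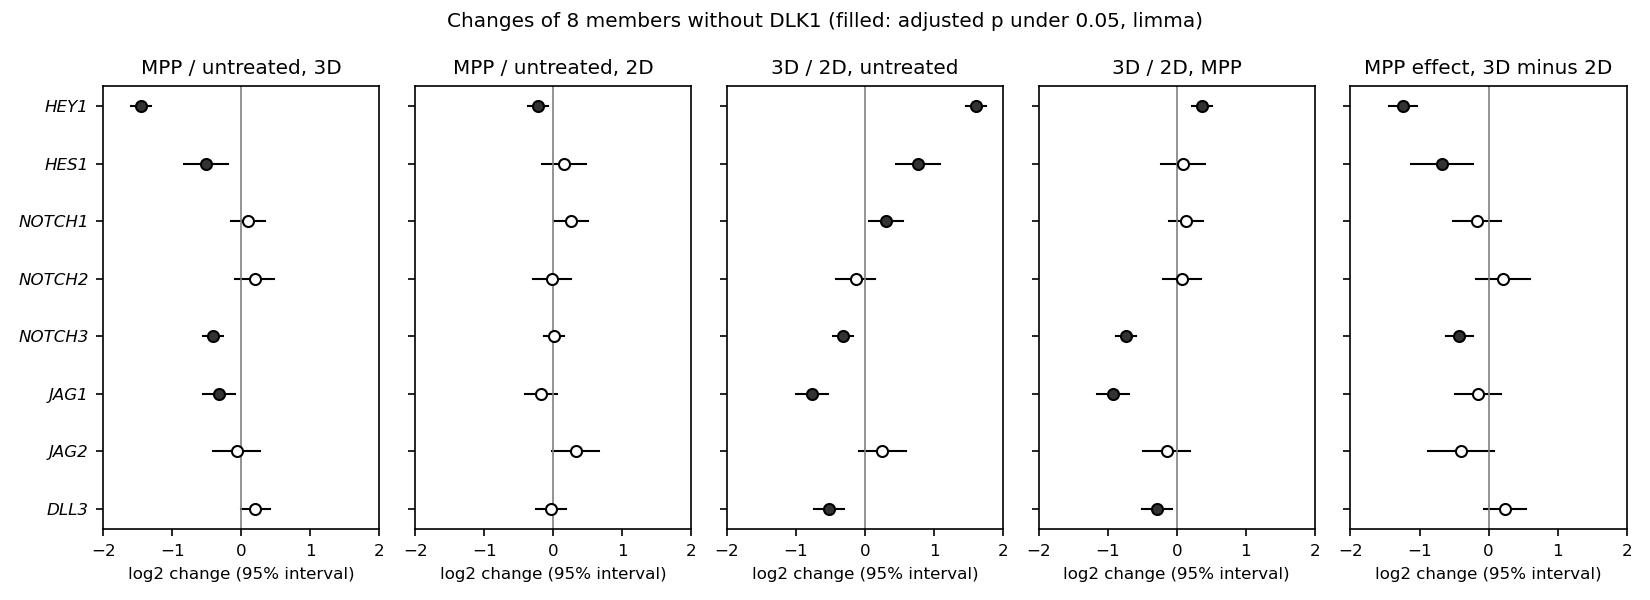
Log2 differences (points) of the 8 measured members other than DLK1 with 95% intervals from limma (lines), in panels by comparison, with filled points for an adjusted p under 0.05. HEY1 lies below 0 with MPP in both cultures, and JAG1, DLL3 and NOTCH3 lie below 0 in both comparisons of 3D with 2D.

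DLK1 was the member that differed most between the cultures. By the ratio of means, untreated 3D stood 17.0 times as high as untreated 2D, and with MPP the scaffold stood 19.5 times as high as the dish. With MPP it fell in both cultures, to 0.562 of the untreated mean in 3D and 0.489 in 2D. The gene (Entrez 8788) lies on chromosome 14 at 100725705 to 100738224 on the plus strand (GENCODE 29, GRCh38).

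Normalised counts of DLK1 were 422973, 355556, 331792 and 368574 in MPP-treated 3D, against 606717, 659748, 695105 and 671779 in untreated 3D. They were 19885, 19885, 18862 and 17319 in MPP-treated 2D, against 42099, 41061, 38524 and 33542 in untreated 2D. No library of any group overlapped with another group, and every scaffold library was above every dish library whatever the treatment. The fall with MPP was -0.84 on the log2(value + 1) scale in 3D (limma, SE 0.086, adjusted p = 1.22e-07) and -1.03 in 2D (limma, SE 0.086, adjusted p = 6.63e-09). The difference between cultures was 4.09 untreated (limma, SE 0.086, adjusted p = 1.01e-19) and 4.28 with MPP (limma, SE 0.086, adjusted p = 1.13e-19). The MPP effects in 3D and 2D differed by 0.19 (limma, 95% interval -0.061 to 0.44, adjusted p = 0.33), so a difference between the cultures in the relative fall was not called. In these bulk samples, fewer cells that express a gene and less of its RNA per cell cannot be told apart.

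DLK1 took a share of all reads that few genes reach. It held 1.08% ± 0.1005 of reads in MPP-treated 3D, 1.802% ± 0.102 in untreated 3D, 0.0556% ± 0.00435 in MPP-treated 2D and 0.106% ± 0.0103 in untreated 2D (SD, n = 4 each). By reads its rank among all genes was 3 in every MPP-treated 3D library and 1 in every untreated 3D library, while MPP-treated 2D had 170 to 229 and untreated 2D 44 to 63. The other 8 members together held 0.0471 to 0.0538% of reads in MPP-treated 3D against 0.0562 to 0.0596% in untreated 3D, while MPP-treated 2D had 0.0589 to 0.0629% and untreated 2D 0.0527 to 0.0607%. The summed share of the other members thus stayed within a narrow band while that of DLK1 spanned more than an order of magnitude.

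**Figure D2:**
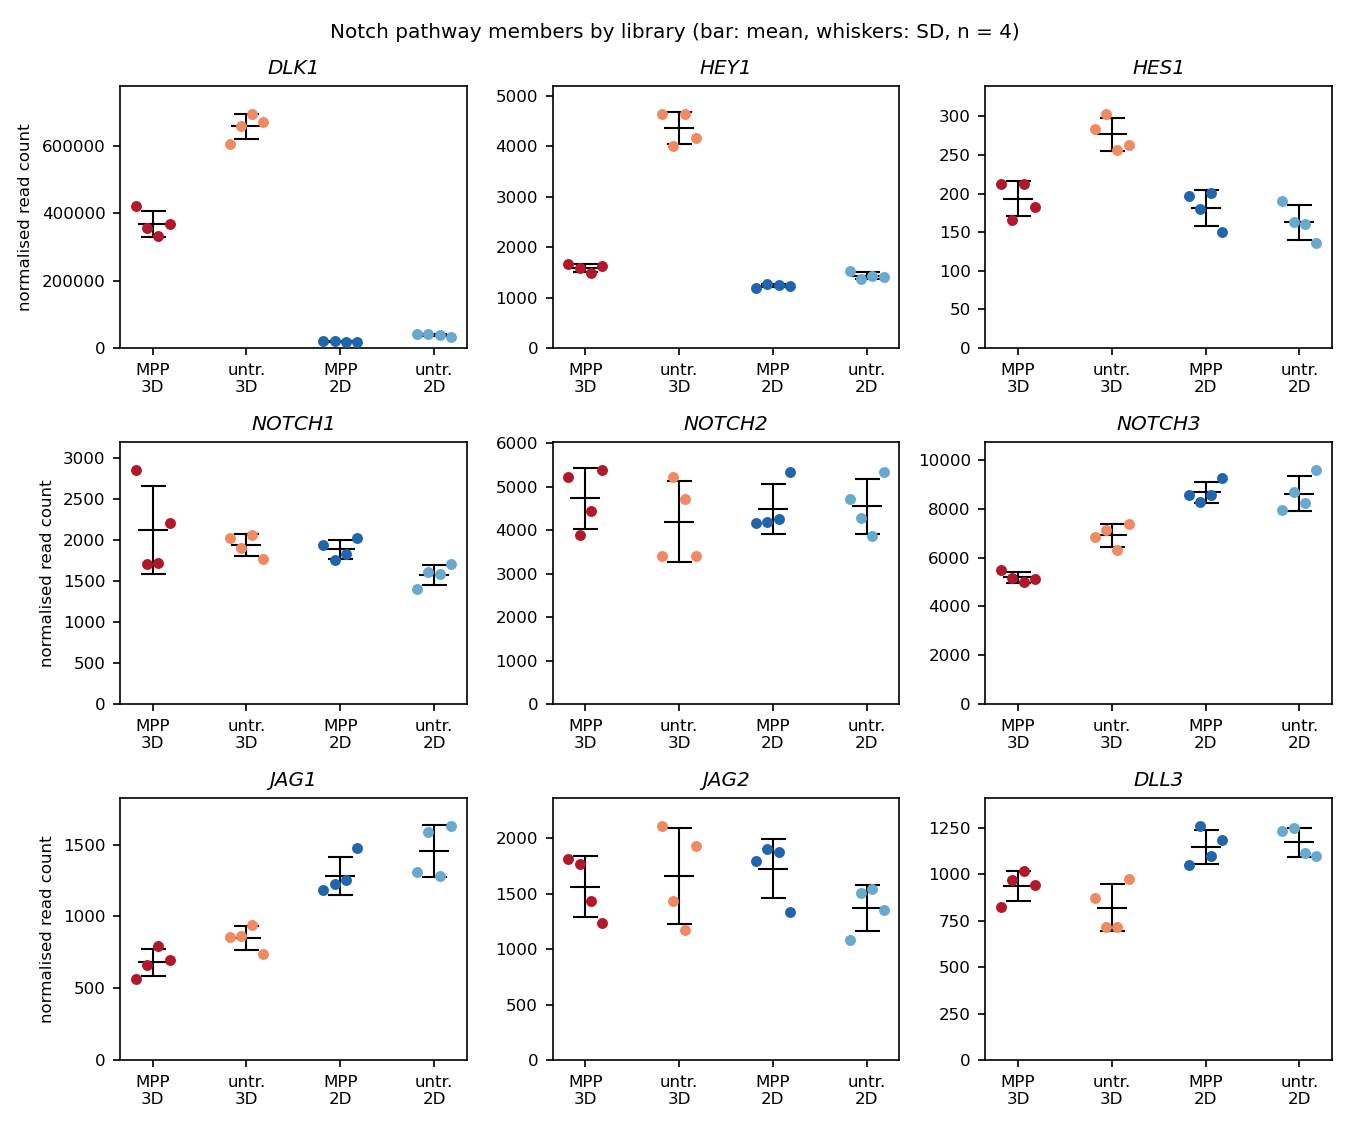
Normalised read counts of the 9 measured members in each library (points) with the group mean (bar) and SD (whiskers, n = 4), in panels by gene on linear axes from 0, with MPP-treated 3D, untreated 3D, MPP-treated 2D and untreated 2D from left to right. DLK1 separates the 4 groups, HEY1 peaks in untreated 3D at 4014 to 4638, and NOTCH2 and JAG2 overlap in all groups.

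The neighbours of DLK1 were followed as well, because DLK1 sits in an imprinted domain on chromosome 14 whose genes are controlled from shared elements: RTL1 and DIO3 are read from the paternal chromosome, and the noncoding RNAs MEG3, MEG8 and MEG9 from the maternal one. Of 8 genes listed, 6 passed the filter (RTL1, DIO3, MEG3, MEG9 and the flanking genes BEGAIN and WDR25). In untreated 3D against untreated 2D 5 of the 6 rose and 0 fell, beside 23.2% and 23.0% of all genes tested (median log2 1.27, against 0.010). MPP-treated 3D against untreated 3D gave 0 higher and 6 lower, beside 17.0% and 17.6% (median -0.92, against 0.0033). MPP-treated 2D against untreated 2D gave 0 higher and 2 lower, beside 17.7% and 16.9% (median -0.60, against 0.020). MPP-treated 3D against MPP-treated 2D gave 2 higher and 1 lower, beside 19.0% and 19.9% (median 0.19, where DLK1 had 4.28). For the difference of the MPP effects 0 were higher and 4 lower, beside 7.00% and 8.32% (median -1.01, where DLK1 had 0.19, not called).

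RTL1, a retrotransposon-derived gene best known from placenta and muscle, averaged 599 ± 145 in MPP-treated 3D and 3061 ± 159 in untreated 3D, and 792 ± 103 in MPP-treated 2D and 1358 ± 103 in untreated 2D (SD, n = 4 each). Its fall with MPP was -2.38 in 3D (limma, adjusted p = 3.10e-12) and -0.78 in 2D (limma, adjusted p = 7.15e-05), and the 2 effects differed by -1.60 (limma, adjusted p = 1.47e-06). RTL1 has an antisense transcript in the domain, and the sources used here do not say whether reads were assigned by strand, so reads of the 2 cannot be told apart. MPP-treated 3D was the lower of the MPP groups for RTL1 (log2 -0.42, limma, adjusted p = 0.0128), the reverse of DLK1.

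DIO3, an enzyme that inactivates thyroid hormone, averaged 68.1 ± 37.8 in MPP-treated 3D and 482 ± 96.0 in untreated 3D, and 16.2 ± 8.96 in MPP-treated 2D and 26.0 ± 4.92 in untreated 2D. It rose by 4.16 in untreated 3D over untreated 2D (limma, adjusted p = 8.38e-09) and fell by 2.95 with MPP in 3D (limma, adjusted p = 2.66e-06). In 2D its MPP difference of -0.80 was not called (limma, adjusted p = 0.108), and the effects differed by -2.16 (limma, adjusted p = 0.00719). MEG3 averaged 589 ± 105 in MPP-treated 3D and 923 ± 289.8 in untreated 3D, and 244 ± 70.7 in MPP-treated 2D and 358 ± 94.6 in untreated 2D. MEG3, a noncoding RNA of the maternal chromosome, rose by 1.36 in untreated 3D over untreated 2D (limma, adjusted p = 4.51e-05) and by 1.30 in MPP-treated 3D over MPP-treated 2D (limma, adjusted p = 1.06e-04). MEG9 rose by 1.93 in untreated 3D over untreated 2D (limma, adjusted p = 1.72e-07), and WDR25 was the 1 gene of the 6 not called there (log2 -0.24, limma, adjusted p = 0.122).

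**Figure D3:**
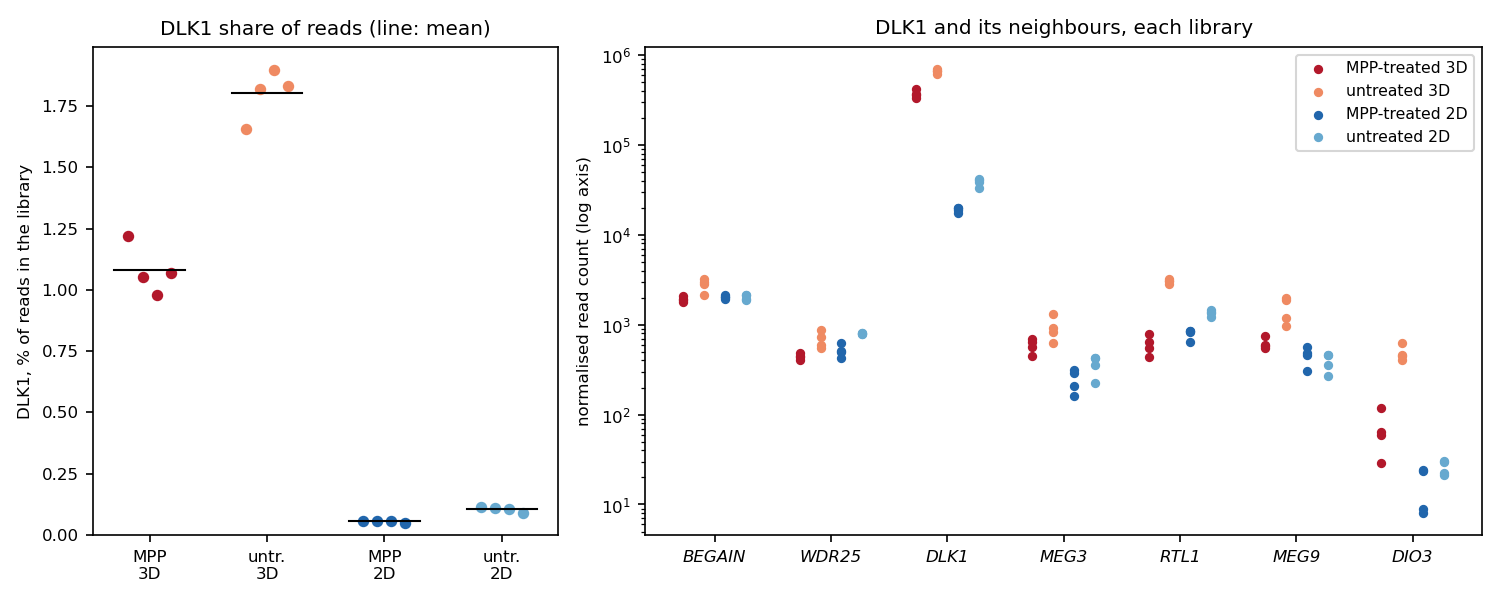
Left, reads of DLK1 as a percentage of all reads in each library (points) with group means (lines), and right, normalised read counts of DLK1 and 6 neighbours in each library on a log axis, coloured by group. DLK1 averages 1.802% of reads in untreated 3D and 0.106% in untreated 2D, and the points of RTL1 and DIO3 also stand highest in untreated 3D.

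The canonical ligands differed by gene. JAG1, a ligand that activates Notch receptors on neighbouring cells, was lower in the scaffold whatever the treatment, while JAG2 was called in no comparison. DLL3, a divergent Delta ligand that acts mostly inside the cell and is prominent in neuroendocrine tumours, was also lower in the scaffold.

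JAG1 (Entrez 182, chromosome 20 at 10637684 to 10673999, minus strand) had 563, 662, 797 and 697 normalised counts in MPP-treated 3D, against 854, 861, 940.3 and 741 in untreated 3D. The counts were 1181, 1225, 1253 and 1477 in MPP-treated 2D, against 1312, 1590.3, 1284 and 1629 in untreated 2D. All scaffold libraries were below all dish libraries, and within each culture the MPP-treated and untreated libraries overlapped. JAG1 fell by 0.77 in untreated 3D against untreated 2D (limma, SE 0.11, adjusted p = 7.34e-06) and by 0.92 in MPP-treated 3D against MPP-treated 2D (limma, SE 0.11, adjusted p = 1.04e-06). With MPP in 3D it fell by 0.33 (limma, SE 0.11, adjusted p = 0.0278), and in 2D the difference of -0.18 was not called (limma, 95% interval -0.41 to 0.057, adjusted p = 0.238). The fall with MPP in 3D was lost without MPP-treated 3D replicate 1 (0.111) or 2 (0.0556), without untreated 3D replicate 2 (0.0564) or 3 (0.0782), with equal library totals (0.109), with equal nuclear totals (0.0706, or 0.0595 leaving out DLK1) and with only the groups compared (0.0709), over a range of 0.00920 to 0.111.

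DLL3 (Entrez 10683, chromosome 19 at 39498895 to 39508481, plus strand) had 826, 968, 1017 and 944 normalised counts in MPP-treated 3D, against 869.9, 719, 716 and 977 in untreated 3D. It had 1051, 1259, 1100.2 and 1183 in MPP-treated 2D, against 1231, 1247, 1112 and 1098 in untreated 2D. The scaffold libraries lay below the dish libraries of the same treatment, and the toxin groups overlapped in both cultures. DLL3 fell by 0.52 in untreated 3D against untreated 2D (limma, SE 0.10, adjusted p = 2.55e-04) and by 0.29 in MPP-treated 3D against MPP-treated 2D (limma, SE 0.10, adjusted p = 0.0297). The second of these was lost without MPP-treated 3D replicate 1 (0.101) or 4 (0.0526), without MPP-treated 2D replicate 2 (0.0963) or 4 (0.0664), and with equal nuclear totals that leave out DLK1 (0.0535), over a range of 0.0157 to 0.101. With MPP in 3D the difference of 0.20 was not called (limma, 95% interval -0.011 to 0.42, adjusted p = 0.136), though it was called with equal library totals (0.0273) and without untreated 3D replicate 4 (0.0286).

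JAG2 (Entrez 3714, chromosome 14 at 105140981 to 105168824, minus strand), the other Jagged ligand, ranged from 1238 to 1811 in MPP-treated 3D, from 1172 to 2110.3 in untreated 3D, from 1331 to 1901 in MPP-treated 2D and from 1079 to 1542 in untreated 2D. Its groups overlapped in every comparison. The spread within untreated 3D, a coefficient of variation of 26.1%, was the widest of any member in any group. Its largest difference between groups was 0.33 with MPP in 2D (limma, 95% interval -0.0099 to 0.67, adjusted p = 0.125). That difference was called with equal library totals (0.0429) and without MPP-treated 2D replicate 4 (0.0420), and the difference of 0.25 between untreated 3D and untreated 2D was called without untreated 3D replicate 3 (0.0372). DLL4, a Delta ligand outside the set that is best known from blood vessels, averaged 122 ± 46.0 in MPP-treated 3D, 143 ± 38.3 in untreated 3D, 88.7 ± 22.8 in MPP-treated 2D and 44.9 ± 15.3 in untreated 2D. It rose by 1.69 in untreated 3D over untreated 2D (limma, adjusted p = 1.50e-04) and by 1.02 with MPP in 2D (limma, adjusted p = 0.0163).

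Among the receptors, NOTCH3 was lower in scaffolds than on dishes and fell with MPP in the scaffold alone among the 2 tests of the toxin, and the difference of the toxin effects was itself called. NOTCH3 (Entrez 4854, chromosome 19 at 15159038 to 15200981, minus strand) is in adults best known from the smooth muscle of arteries.

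NOTCH3 had 5502, 5176, 4998 and 5105 normalised counts in MPP-treated 3D, against 6850.4, 7136, 6296 and 7362 in untreated 3D. In MPP-treated 2D it had 8569.8, 8260.2, 8579.8 and 9276, against 7950.3, 8703, 8239 and 9586 in untreated 2D. The 4 MPP-treated 3D libraries were the lowest of the 16, untreated 3D lay between them and the dishes, and the dish groups overlapped. NOTCH3 fell by 0.41 with MPP in 3D (limma, SE 0.068, adjusted p = 6.50e-05), and the difference with MPP in 2D was 0.011 (limma, 95% interval -0.13 to 0.15, adjusted p = 0.919). The difference of the 2 effects was -0.42 (limma, SE 0.096, adjusted p = 0.00381). NOTCH3 fell by 0.32 in untreated 3D against untreated 2D (limma, SE 0.068, adjusted p = 5.91e-04) and by 0.74 in MPP-treated 3D against MPP-treated 2D (limma, SE 0.068, adjusted p = 1.47e-08).

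NOTCH1 (Entrez 4851, chromosome 9 at 136494433 to 136545786, minus strand) had 2855, 1705, 1724 and 2215 normalised counts in MPP-treated 3D, against 2024, 1909, 2063 and 1773 in untreated 3D. It had 1939.7, 1759.8, 1828 and 2027 in MPP-treated 2D, against 1404, 1606, 1581 and 1709 in untreated 2D. Untreated 2D had the lowest mean and overlapped with neither untreated 3D nor MPP-treated 2D, while replicate 1 of MPP-treated 3D was above all other libraries. NOTCH1 rose by 0.30 in untreated 3D against untreated 2D (limma, SE 0.12, adjusted p = 0.0417). That call was lost without untreated 3D replicate 1, 2 or 3 (0.0849, 0.0631 and 0.0882), without untreated 2D replicate 1, 2 or 3 (0.127, 0.0625 and 0.0683) and with equal nuclear totals (0.140, or 0.0993 leaving out DLK1), over a range of 0.00789 to 0.140. The difference with MPP in 2D was 0.26 and was not called (limma, 95% interval 0.016 to 0.51, adjusted p = 0.0916), though it was called with equal library totals (0.0147), quantile normalisation (0.0483), only the groups compared (0.0107) and without MPP-treated 3D replicate 1 (0.0250).

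NOTCH2 (Entrez 4853, chromosome 1 at 119911553 to 120069626, minus strand) ranged from 3893 to 5385 in MPP-treated 3D, from 3402 to 5231 in untreated 3D, from 4159.7 to 5337 in MPP-treated 2D and from 3857 to 5341 in untreated 2D. Its groups overlapped in every comparison and none was called, with log2 differences between -0.14 and 0.19 for the 4 comparisons of groups. NOTCH2NL genes are partial copies of NOTCH2 that can share its reads. The 3 copies in the table summed to 59.8 to 87.6 in MPP-treated 3D against 26.8 to 72.8 in untreated 3D, while MPP-treated 2D had 70.3 to 137 and untreated 2D 22.6 to 49.97, far below NOTCH2 itself. NOTCH1 and JAG1 overlap annotated antisense transcripts that have no row in the table, and reads of the 2 strands cannot be told apart.

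Markers of the mesenchymal state of neuroblastoma, a substrate-adherent cell form in which Notch genes are often high, ran in parallel with NOTCH3 and JAG1 between the cultures. The 8 listed markers summed to 5128 to 6201 in MPP-treated 3D against 5189 to 6588 in untreated 3D, while MPP-treated 2D had 9276 to 10571 and untreated 2D 7786 to 9050. Of 7 tested, 5 fell and 0 rose in untreated 3D against untreated 2D, beside 23.0% and 23.2% of all genes. In MPP-treated 3D against MPP-treated 2D 5 fell and 0 rose, beside 19.9% and 19.0%. With MPP in 3D, where NOTCH3 and JAG1 fell, 1 of the 7 fell and 0 rose (median log2 -0.064), beside 17.6% and 17.0%. The defining regulator PRRX1 was at 0 in every library of untreated 3D, MPP-treated 2D and untreated 2D and reached at most 11.1 in MPP-treated 3D. Schwann cell and glia markers summed to 723 to 927 in MPP-treated 3D against 865 to 950.1 in untreated 3D, while MPP-treated 2D had 859 to 1049 and untreated 2D 669 to 834, and SOX10, the defining factor of those cells, averaged under 10 in all 4 groups. Lower levels in the scaffold were not particular to the mesenchymal list. Of 8 markers of the noradrenergic, neuron-like state, 4 fell and 1 rose in untreated 3D against untreated 2D (median log2 -0.37). In MPP-treated 3D against MPP-treated 2D 5 of the 8 fell and 1 rose (median -0.44). The shares of all genes in these comparisons stand above. What part these markers have in the differences of NOTCH3 and JAG1 was not tested.

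Both target genes were highest in untreated 3D and fell with MPP there. HEY1 (Entrez 23462), a repressor that Notch induces in neural and vascular cells, fell to 0.365 of its untreated mean in 3D and to 0.860 in 2D. HES1 (Entrez 3280, chromosome 3 at 194136145 to 194138732, plus strand), the repressor that keeps neural progenitors undifferentiated, fell to 0.700 of its untreated mean in 3D.

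HEY1 had 1656, 1588, 1486 and 1632 normalised counts in MPP-treated 3D, against 4631, 4014, 4638 and 4166 in untreated 3D. It had 1194, 1259, 1253 and 1230.1 in MPP-treated 2D, against 1528, 1372, 1428 and 1412 in untreated 2D. None of the 4 comparisons of groups had overlapping libraries, and the untreated 3D libraries stood far above all others. HEY1 fell by 1.45 with MPP in 3D (limma, SE 0.070, adjusted p = 3.47e-13) and by 0.22 with MPP in 2D (limma, SE 0.070, adjusted p = 0.0200). The 2 effects differed by -1.24 (limma, SE 0.099, adjusted p = 8.02e-09). HEY1 rose by 1.60 in untreated 3D over untreated 2D (limma, SE 0.070, adjusted p = 2.59e-14) and by 0.36 in MPP-treated 3D over MPP-treated 2D (limma, SE 0.070, adjusted p = 2.58e-04). The fall in 2D was lost without MPP-treated 2D replicate 1 (0.0576), without untreated 2D replicate 1 (0.0691) and with equal library totals (log2 -0.11, adjusted p 0.224), over a range of 0.00547 to 0.224.

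HES1 had 212, 166, 213 and 183 normalised counts in MPP-treated 3D, against 284, 303, 257 and 263 in untreated 3D. It had 196, 179.7, 200.4 and 149.6 in MPP-treated 2D, against 190.4, 163, 161 and 135 in untreated 2D. Untreated 3D lay above each of the other groups, which overlapped among themselves. HES1 rose by 0.77 in untreated 3D over untreated 2D (limma, SE 0.15, adjusted p = 2.75e-04) and fell by 0.52 with MPP in 3D (limma, SE 0.15, adjusted p = 0.0112). The difference of the MPP effects was -0.68 (limma, SE 0.22, adjusted p = 0.0369). That last call was lost in 14 of 28 alternatives, over a range of 0.0154 to 0.0813, among them the fits without MPP-treated 3D replicate 2 or 4 (0.0761 and 0.0668), untreated 3D replicate 1 or 2 (0.0605 and 0.0709), MPP-treated 2D replicate 1, 2 or 3 (0.0756, 0.0595 and 0.0789) or untreated 2D replicate 2, 3 or 4 (0.0553, 0.0571 and 0.0813).

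With MPP in 2D the HES1 difference was 0.16 (limma, 95% interval -0.16 to 0.48, adjusted p = 0.45), and between the MPP-treated cultures it was 0.094 (limma, adjusted p = 0.665).

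Most of the listed hypoxia-response genes, like the targets and DLK1, were higher in untreated 3D than in untreated 2D and fell with MPP in 3D. The 8 listed genes summed to 17188 to 18371 in MPP-treated 3D against 60060.2 to 68977 in untreated 3D, while MPP-treated 2D had 15434 to 17556 and untreated 2D 13195 to 13531. With MPP in 3D 0 of the 8 rose while 6 fell, beside 17.0% and 17.6% of all genes. In untreated 3D against untreated 2D 7 rose while 0 fell, beside 23.2% and 23.0%. With MPP in 2D, where DLK1 and HEY1 fell, 3 of the 8 rose and 3 fell, beside 17.7% and 16.9%. VEGFA, the angiogenic growth factor that low oxygen induces, averaged 6992 ± 709 in MPP-treated 3D, 38563 ± 5555 in untreated 3D, 8179.9 ± 746 in MPP-treated 2D and 4723 ± 277 in untreated 2D. In MPP-treated 3D against MPP-treated 2D 4 of the 8 rose and 0 fell, beside 19.0% and 19.9% of all genes. The median log2 difference of the 8 was 0.26 there, while that of DLK1 was 4.28. Cell cycle genes moved otherwise. The 6 listed summed to 8486 to 13981 in MPP-treated 3D against 10797 to 11743 in untreated 3D, while MPP-treated 2D had 8658 to 9970.3 and untreated 2D 21430.3 to 24816. The part of low oxygen or of the cell cycle in these results was not tested.

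Further HES family genes, listed together as targets, were followed to see whether they moved with HES1 and HEY1. Of 8 listed, 5 passed the filter (HES2, HES3, HES4, HES6 and HES7). With MPP in 3D 0 rose and 0 fell, with MPP in 2D 4 rose and 0 fell, and in untreated 3D against untreated 2D 3 rose and 0 fell. Of all genes tested 17.7% rose with MPP in 2D and 23.2% were higher in untreated 3D. For the difference of the MPP effects, 0 were higher and 4 lower, beside 7.00% and 8.32% of all genes, with a median of -0.85 against -0.019 over all genes tested.

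HES4, whose promoter is shown above, averaged 2008 ± 176 in MPP-treated 3D and 2383 ± 461 in untreated 3D, and 1915 ± 113 in MPP-treated 2D and 1333 ± 84.2 in untreated 2D. It rose by 0.52 with MPP in 2D (limma, adjusted p = 4.10e-04), was not called with MPP in 3D (log2 -0.23, limma, adjusted p = 0.0853), and the effects differed by -0.75 (limma, adjusted p = 7.55e-04). HES6, which inhibits HES1 in mouse and is not itself a typical target, averaged 8565 ± 1828 in MPP-treated 3D and 8201 ± 2012 in untreated 3D, and 9986 ± 682 in MPP-treated 2D and 5259.9 ± 257 in untreated 2D. It rose by 0.92 with MPP in 2D (limma, adjusted p = 2.56e-05), and the effects differed by -0.85 (limma, adjusted p = 0.00435). HES7, known from the segmentation clock of the embryo, rose by 0.89 with MPP in 2D (limma, adjusted p = 0.00189), and for it the difference of the effects was not called (log2 -0.65, limma, adjusted p = 0.147).

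HES2 and HES3 were low. HES2 averaged 83.0 ± 13.1 in MPP-treated 3D, 114 ± 19.0 in untreated 3D, 206 ± 34.1 in MPP-treated 2D and 134 ± 27.0 in untreated 2D, and HES3 reached at most 27.4 in any library. In 2D, HES2, HES4, HES6 and HES7 thus rose with MPP while HEY1 fell, so members of 1 repressor family changed in opposite directions there. The HEY1 side of this rests on a small fall (log2 -0.22) that was not called with equal library totals (log2 -0.11, limma, adjusted p = 0.224).

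**Figure D4:**
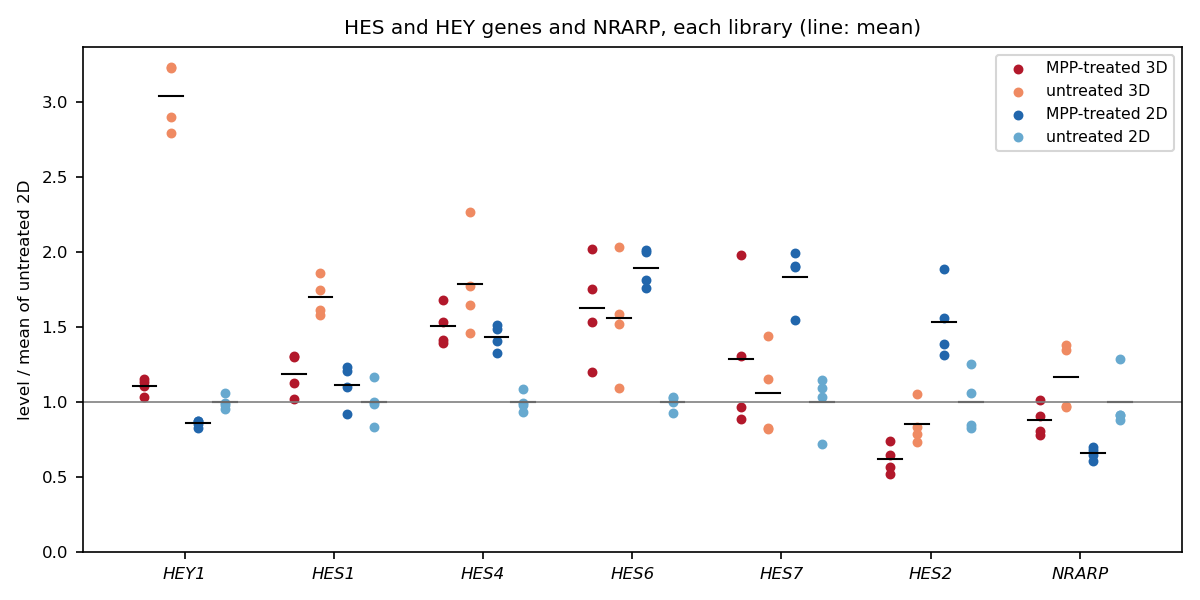
Level of HEY1, HES1, HES4, HES6, HES7, HES2 and NRARP in each library (points) divided by the mean of untreated 2D, on a linear axis with group means as black lines and a grey line at 1. HEY1 stands highest in untreated 3D, with a mean of 3.04 times that of untreated 2D, while HES6, HES7 and HES2 have their highest means in MPP-treated 2D.

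The rest of the pathway held 61 listed genes, of which 56 passed the filter. With MPP in 3D 7 rose and 16 fell (median log2 -0.13), and with MPP in 2D 14 rose and 14 fell (median -0.048). In untreated 3D against untreated 2D 16 rose and 8 fell (median 0.12), and in MPP-treated 3D against MPP-treated 2D 14 rose and 11 fell (median 0.042). For the difference of the MPP effects, 6 were higher and 9 lower (median -0.046). Over all genes tested the shares called higher and lower were 17.0% and 17.6% for MPP in 3D, 17.7% and 16.9% for MPP in 2D, 23.2% and 23.0% for untreated 3D against untreated 2D, 19.0% and 19.9% for MPP-treated 3D against MPP-treated 2D, and 7.00% and 8.32% for the difference. The counts of the groups of genes that follow are to be read beside those shares. The groups hold only 5 to 17 genes each, and whether a count sets a group apart from all genes was not tested. The medians over all genes tested in those comparisons were 0.0033, 0.020, 0.010, 0.0088 and -0.019.

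In the nuclear complex, MPP left 0 of the 9 tested genes higher and 5 lower in 3D, beside 17.0% and 17.6% of all genes, and 1 higher and 3 lower in 2D, beside 17.7% and 16.9%. RBPJ, the DNA-binding partner of Notch, averaged 2325 ± 267 in MPP-treated 3D and 3308 ± 558 in untreated 3D, and 2152 ± 142 in MPP-treated 2D and 2823 ± 226 in untreated 2D. It fell by 0.50 in 3D (limma, adjusted p = 5.66e-04) and by 0.39 in 2D (limma, adjusted p = 0.00491). The coactivator MAML3 fell by 0.80 with MPP in 3D (limma, adjusted p = 7.50e-08), and MAML2 fell by 1.06 there (limma, adjusted p = 6.45e-04). MAML2 was also lower in scaffolds than on dishes, by 1.13 untreated (limma, adjusted p = 2.25e-04) and by 2.23 with MPP (limma, adjusted p = 4.47e-08).

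Corepressors silence targets of RBPJ or work with HES proteins. Of 10 tested, 5 rose and 1 fell in untreated 3D against untreated 2D, beside 23.2% and 23.0% of all genes, and 8 rose and 1 fell in MPP-treated 3D against MPP-treated 2D, beside 19.0% and 19.9%. TLE2, of the Groucho family that HES proteins recruit, averaged 1721 ± 189 in MPP-treated 3D and 309 ± 22.0 in MPP-treated 2D, and 2433 ± 318 in untreated 3D and 289.8 ± 42.0 in untreated 2D. It rose by 3.07 in untreated 3D (limma, adjusted p = 1.47e-15) and by 2.47 in MPP-treated 3D (limma, adjusted p = 1.54e-13). Its relative TLE1 rose by 2.33 in untreated 3D (limma, adjusted p = 5.05e-15) and by 2.78 in MPP-treated 3D (limma, adjusted p = 7.34e-16), whereas TLE3 fell by 1.51 (limma, adjusted p = 3.23e-10) and by 1.46 (limma, adjusted p = 8.85e-10). With MPP, HDAC1, a histone deacetylase of corepressor complexes, fell by 0.83 in 3D (limma, adjusted p = 4.06e-07) and by 0.93 in 2D (limma, adjusted p = 8.44e-08). CTBP2, another corepressor, rose by 0.32 with MPP in 3D (limma, adjusted p = 2.80e-04), and TLE4 fell by 1.09 with MPP in 2D (limma, adjusted p = 3.02e-08).

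Of 9 tested enzymes that cut the receptor, which include the gamma-secretase subunits, MPP in 3D left 2 higher and 1 lower, MPP in 2D left 3 higher and 0 lower, and untreated 3D against untreated 2D gave 0 higher and 1 lower. Over all genes the shares higher and lower with MPP were 17.0% and 17.6% in 3D and 17.7% and 16.9% in 2D. For untreated 3D against untreated 2D they were 23.2% and 23.0%. Of 5 genes for sugar transfer to the receptor, 2 rose and 0 fell in untreated 3D against untreated 2D, namely the fringe enzymes LFNG (log2 0.72, limma, adjusted p = 0.00180) and MFNG (log2 1.65, limma, adjusted p = 7.53e-08). Fringe enzymes alter which ligands a Notch receptor answers to. POGLUT1, which adds glucose to the receptor, was higher in the difference of the MPP effects by 0.53 (limma, adjusted p = 0.00121), as was NEURL1B, a ligase that drives ligand uptake, by 0.75 (limma, adjusted p = 2.08e-04).

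Of 10 inhibitors and turnover genes, MPP in 3D left 0 higher and 4 lower, beside 17.0% and 17.6% of all genes. MPP in 2D left 1 higher and 2 lower, beside 17.7% and 16.9%. NRARP, an inhibitor that Notch itself induces, averaged 477 ± 57.9 in MPP-treated 3D and 633 ± 123 in untreated 3D, and 358 ± 23.1 in MPP-treated 2D and 542 ± 105 in untreated 2D. It fell by 0.40 in 3D (limma, adjusted p = 0.0347) and by 0.58 in 2D (limma, adjusted p = 0.00312). DNER, a neuronal non-canonical ligand, was lower in scaffolds by 0.90 untreated (limma, adjusted p = 1.33e-10) and by 0.93 with MPP (limma, adjusted p = 9.97e-11), the opposite of the non-canonical ligand DLK1.

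Proneural basic helix-loop-helix factors, which HES and HEY proteins repress, and the ID proteins that block them made a further list, of which 17 of 26 genes were tested. With MPP in 3D 3 rose and 4 fell, with MPP in 2D 3 rose and 3 fell, in untreated 3D against untreated 2D 3 rose and 5 fell, and in MPP-treated 3D against MPP-treated 2D 2 rose and 5 fell. The shares called over all genes were 17.0% higher and 17.6% lower, 17.7% and 16.9%, 23.2% and 23.0%, and 19.0% and 19.9% in the same order. NEUROG2, a proneural factor, averaged 340.0 ± 96.1 in MPP-treated 3D and 236 ± 60.1 in untreated 3D, and 415 ± 72.3 in MPP-treated 2D and 839.6 ± 49.2 in untreated 2D. It fell by 1.87 in untreated 3D against untreated 2D (limma, adjusted p = 1.06e-07) and by 1.03 with MPP in 2D (limma, adjusted p = 3.83e-04), and its MPP effects differed by 1.55 (limma, adjusted p = 4.71e-04).

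HAND1, a factor of the sympathetic lineage, fell with MPP by 1.06 in 3D (limma, adjusted p = 8.06e-10) and by 1.10 in 2D (limma, adjusted p = 8.00e-10). Its relative HAND2 fell by 0.58 in 3D (limma, adjusted p = 7.04e-06), with effects that differed by -0.49 (limma, adjusted p = 0.00369). ID3, an inhibitor of these factors, rose with MPP by 1.25 in 3D (limma, adjusted p = 2.08e-07) and by 0.66 in 2D (limma, adjusted p = 5.91e-04). TCF4, the partner that proneural factors bind, also rose with MPP, by 0.58 in 3D (limma, adjusted p = 1.26e-05) and by 0.29 in 2D (limma, adjusted p = 0.00988), and fell by 0.89 in untreated 3D against untreated 2D (limma, adjusted p = 1.22e-08). ID1 rose by 1.19 in untreated 3D over untreated 2D (limma, adjusted p = 1.27e-04) and by 1.56 in MPP-treated 3D over MPP-treated 2D (limma, adjusted p = 7.06e-06).

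To set the genes against each other, normalised counts were divided by the length of the joined exons of each gene in GENCODE 29. In every group DLK1 led, at 69602 per kilobase in MPP-treated 3D, 123934 in untreated 3D, 3575 in MPP-treated 2D and 7305 in untreated 2D. NOTCH3 came next in 3 groups, at 553 per kilobase in MPP-treated 3D, 923 in MPP-treated 2D and 918 in untreated 2D. In untreated 3D HEY1, at 1349.8 per kilobase, stood above NOTCH3, at 736.

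Lower in the order, neighbouring genes often did not separate. In MPP-treated 3D HEY1 followed at 492 per kilobase, the ranges of DLL3, NOTCH2, JAG2 and NOTCH1 overlapped between neighbours at means of 359, 282, 244 and 205, and HES1 and JAG1 overlapped at 93.9 and 73.1. In untreated 3D DLL3, JAG2 and NOTCH2 overlapped at 313, 259.7 and 249, above NOTCH1 at 187, HES1 at 134 and JAG1 at 91.3. The receptors therefore stood in the order NOTCH3, NOTCH2 and NOTCH1 by mean in these groups, and they did so in the dish groups as well. In MPP-treated 2D DLL3 at 439 and HEY1 at 382 followed NOTCH3, with JAG2 and NOTCH2 overlapping at 269.6 and 267, then NOTCH1 at 182, JAG1 at 138 and HES1 at 88.0. In untreated 2D DLL3 and HEY1 overlapped at 448 and 444, NOTCH2, JAG2, JAG1 and NOTCH1 overlapped between neighbours at 271, 214, 156 and 152, and HES1 was last at 78.8. HES1 and JAG1 held the last places in both scaffold groups, and HES1 the last in both dish groups.

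**Figure D5:**
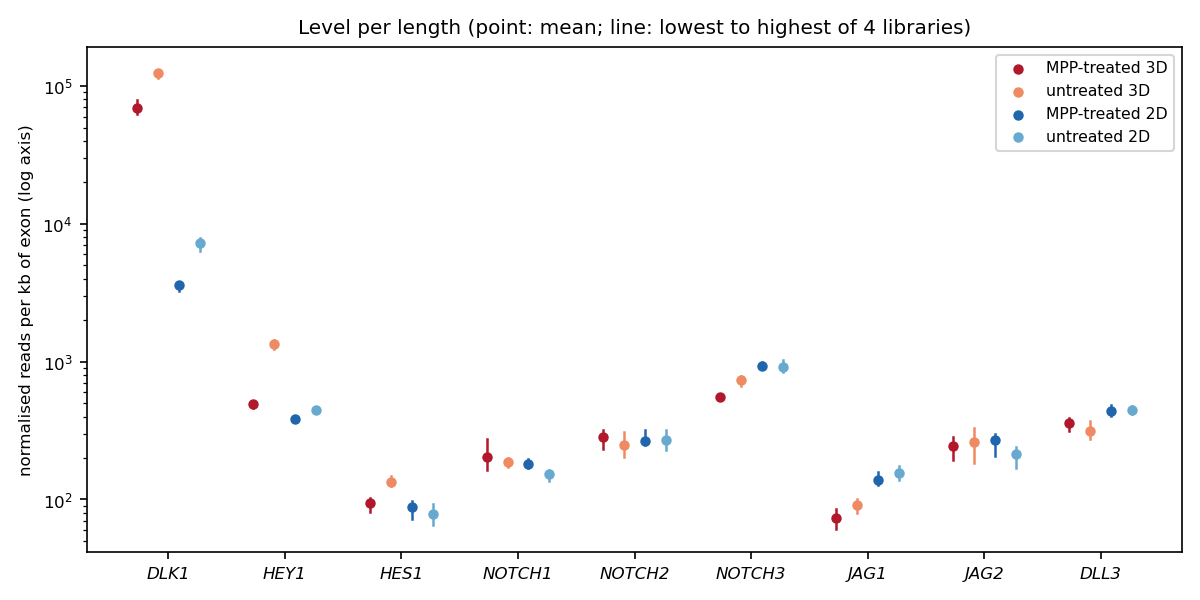
Normalised read counts per kilobase of joined exons for each member on a log axis, with the mean (point) and the lowest to highest of 4 libraries (line) in each group. DLK1 leads in all 4 groups, and HEY1 at 1349.8 exceeds NOTCH3 at 736 in untreated 3D.

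For each member the 2 genes with the most similar pattern were found by Pearson r of log2(value + 1) over the 16 libraries, among 12058 genes that averaged at least 50. Since the libraries fall into 4 groups, r was also taken on deviations from the group means. Both are descriptions over libraries that differ in depth, and the labels do not name a batch. DLK1 was most like WIPI2 (r 0.989, within groups 0.342) and EPAS1, a hypoxia-inducible transcription factor (r 0.988, within groups -0.498). HEY1 was most like FAM167A (r 0.986, within groups -0.257) and NT5DC2 (r 0.985, within groups -0.100). The patterns of DLK1 and HEY1 were thus shared between groups and not among the libraries within a group.

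JAG1 was most like SCN9A, a sodium channel (r 0.977, within groups 0.742), and NIPAL1 (r 0.975, within groups 0.761). NOTCH3 was most like the kinase PLK2 (r 0.958, within groups 0.648) and BCAN, a proteoglycan (r 0.956, within groups 0.406). HES1 was most like GNAO1 (r 0.925, within groups 0.646) and ZCWPW2 (r 0.923, within groups 0.784), and DLL3 was most like FSD1 (r 0.942, within groups 0.796) and ACVRL1 (r 0.938, within groups 0.824). JAG2 was most like PRRT2 (r 0.964, within groups 0.971) and ZNF316 (r 0.9499, within groups 0.942), NOTCH2 most like PPM1L (r 0.938, within groups 0.940) and NEXMIF (r 0.931, within groups 0.935), and NOTCH1 most like PHKA1 (r 0.894, within groups 0.905) and CRY2 (r 0.892, within groups 0.870). For these 3 members r within groups, pooled over the 4 groups, was about as high as r over all libraries. JAG1, HES1 and DLL3 also had r of 0.646 to 0.824 within groups.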

How the data were processed

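Poly-A RNA from 16 libraries of SH-SY5Y cells was sequenced, and titles put 4 in each group. What the authors deposited is a signal per gene: the read count over the size factor DESeq2 gives that library. Per the submitters' processing notes the tools were CASAVA (1.8.2), FastQC, STAR, featureCounts and DESeq2, on genome build GRCh38.p13, while annotation, settings and strand use are not stated there. In each library all values (100%) were whole multiples of a single step, to within 0.01 reads, which recovered whole reads. DESeq2 (1.42.0) size factors from those reads were 0.999 to 1.00 times the deposited ones. Each of the 19898 genes holds at least 11 reads. Replicates differed beyond sampling noise: chi-square over degrees of freedom reached 6.43 or more in all 24 pairs.

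Testing used limma (3.58.1, R 4.3.3) with trend on log2(value + 1), a scale that understates changes of low genes. Genes needed 10 or more in at least 4 libraries, which left 16984, and 1 fit held all 4 groups. Calls are at a Benjamini-Hochberg adjusted p under 0.05 over these genes, two-sided. Limma on the deposited values stayed the main test, as designed, although reads were recovered, and edgeR (4.0.16) and DESeq2 on those reads were alternatives. In simulated data for MPP-treated 3D against untreated 3D over 16984 genes, 77.6% of genes changed by 1.5-fold, 89.6% by 2-fold and 98.5% by 4-fold were called, and 0.0536% of unchanged ones. Every simulated gene had the same fixed spread beyond sampling noise, so members with a wider spread, such as JAG2, may be called less often. Exon lengths came from GENCODE 29, which may not be the authors' annotation, and promoters from RefSeq on GRCh38.p14. All members are named, with at least the 2 listed genes of smallest p in each direction and the 2 genes most alike, except for genes that are not reported here. The members and lists were chosen with earlier results of these data known. Alternatives were other scalings, pseudocounts, filters and tools, a block for the replicate number, and leaving out each library.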

Additional observations from a re-analysis of the deposited data

Results flagged for a closer look

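NOTCH2 in MPP-treated 2D replicate 4, at 5337 normalised counts, stood apart from the other 3 libraries of its group, at 4159.7, 4185 and 4262, with a gap of 0.914 of the group's range, past Dixon's critical value. It was the 1 such case among 36 groups of 4 values, where chance gives about 1 in 20. NOTCH2 was called in no comparison.

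The MPP effect differed between the cultures for 3 members by the interaction test in limma. The difference of the MPP effects, 3D minus 2D, was -1.24 for HEY1, -0.42 for NOTCH3 and -0.68 for HES1 on the log2 scale. The calls of HEY1 and NOTCH3 held in all 28 alternatives, while that of HES1 was lost in 14 of 28. HEY1 fell in both cultures, and NOTCH3 and HES1 fell in 3D and were not called in 2D.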

How the results depend on the processing

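The 9 members gave 45 results over the 5 comparisons. Of 1296 alternative values 1227 kept direction and call, 38 lost a call, 10 gained one and 21 turned direction. The 21 were in 6 results that were not called, and none was called after the turn (limma, smallest adjusted p 0.612). With equal library totals DLL3 and NOTCH2 with MPP in 2D came to 0.074 and 0.085 and JAG2 with MPP in 3D to 0.030, and NOTCH3 with MPP in 2D came to -0.035 with equal nuclear totals, -0.036 with those leaving out DLK1 and -0.020 with quantile normalisation. Leaving out each library gave -0.076 to 0.011 for DLL3, -0.11 to 0.061 for NOTCH2 and -0.027 to 0.063 for NOTCH3 with MPP in 2D, -0.22 to 0.062 for JAG2 and -0.054 to 0.19 for NOTCH1 with MPP in 3D, and -0.014 to 0.23 for NOTCH1 in MPP-treated 3D against MPP-treated 2D. With MPP in 2D the number of members called, 2, was 1 to 3 when each library was left out, and 1 without MPP-treated 2D replicate 1 or untreated 2D replicate 1. The HES1 difference of the MPP effects was lost with equal nuclear totals (0.0738, or 0.0694 leaving out DLK1, an alternative chosen after seeing the data), with quantile normalisation (0.0627), without the filter (0.0534) and without each of 10 libraries in turn. The DLK1 difference of the MPP effects was called with quantile normalisation (0.39, adjusted p 0.0201). Equal library totals moved the median of all genes with MPP in 2D to 0.12, and the higher share of calls to 70.3% from 51.1% in 2D and to 65.9% from 49.0% in 3D. Equal nuclear totals, which set mitochondrial reads aside, moved it to 59.3% with MPP in 3D, to 38.3% from 50.2% in untreated 3D against untreated 2D, and to 66.9% from 45.7% (65.1% without DLK1) for the difference of the effects. Samples with the same replicate number did not deviate together (r -0.115 to 0.0896 over 24 pairs, and 5 of 16 libraries were most like their own number). With the replicate block limma called 5706, 5675, 7634, 6451 and 2436 genes for MPP in 3D, MPP in 2D, untreated 3D against 2D, MPP-treated 3D against 2D and the difference, against 5879, 5866, 7830, 6615 and 2602 without it. The difference has no separate fit with only the groups compared. HES1 had the lowest counts of the measured members, at 135 to 303.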
